A study of Rattus norvegicus with 48 samples.

Results

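Old rats of the LCR line were compared with young rats of the same line, all sampled after a run to exhaustion, in the extensor digitorum longus, a fast-twitch muscle of the lower hind leg whose tendons run to the toes. The comparison used 12 of the 48 arrays of the study, 6 from old and 6 from young LCR rats, chosen by their labels for line, age and exercise and not by any measured value. HCR and LCR commonly stand for high- and low-capacity runner, rat lines selected over generations for how far they run. The labels give the abbreviations, the words old and young and the words exhausted and rest. They state neither an age in months, a sex, a running time nor the delay between the run and tissue collection. Total RNA was labelled and hybridised to Affymetrix Rat Gene ST 2.1 arrays, which carry many short probes along each transcript. Old and young LCR rats at rest (6 and 6 arrays) and old and young HCR rats after exhaustion (6 and 6) served for comparison.

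Skeletal muscle fibres sit in a connective tissue of fibrillar collagens, small proteoglycans and basement membrane, which is made mostly by fibroblasts and joins the tendon at both ends of the muscle. Tendon cells make large amounts of type I collagen together with fibromodulin, keratocan, chondroadherin, tenomodulin and thrombospondin-4, proteins that bind collagen fibrils or arrange them. Muscle also has its own circadian clock, in which CLOCK, or its relative NPAS2, and BMAL1 drive period and D-box genes that act back on the loop. An exhausting run is known to switch on immediate early genes and stress genes in muscle within a short time.

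The 12 arrays were alike in their correlations but not in their quality weights. Correlations between arrays of a group ran from 0.978 to 0.984 in old rats and from 0.971 to 0.985 in young rats. Young LCR exhausted replicate 1 stood apart for a number of genes and had the lowest array quality weight of the 12, at 0.548, against 0.835 to 1.48 for the others. Many of the results that change without it are given both ways. Fast fibre markers were near the top of the array's range in both groups, with an average over the 7 measured markers of 12.95 to 13.03 in old rats and 12.90 to 13.05 in young rats on the log2 scale.

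Of 9558 genes tested, 419 (4.38%) were lower and 72 (0.753%) were higher in old than in young LCR rats after exhaustion, at an adjusted p under 0.05 by limma. At least 1.5-fold differences were found for 201 of the lower and 21 of the higher genes, and at least 2-fold ones for 61 and 3. The values of the 6 old and 6 young rats did not overlap for 216 of the 419 lower and 30 of the 72 higher genes, where 254 (2.66%) and 61 (0.638%) of all genes tested had such a separation. The median difference over all genes tested was -0.02 on the log2 scale. The balance of directions depended on scaling: 346 genes were lower and 213 higher after a further quantile normalization, and 337 and 210 after centring each array on its median. Without young LCR exhausted replicate 1 the counts were 282 lower and 46 higher. The number of higher genes was also 45 without young replicate 3 and 43 without young replicate 6.

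Tendon genes had some of the largest differences. The tendon list and the other lists below were chosen with earlier results of these data known. Of 10 listed tendon markers 9 were tested, and 6 were lower in old rats, against 4.38% of all genes, with a median over the 9 of -2.38 on the log2 scale against -0.02 over all genes. Keratocan, Kera (Entrez Gene 314771), a keratan sulfate proteoglycan that spaces collagen fibrils, had a log2 level of 3.98 to 4.93 (median 4.25) in old and 8.10 to 9.41 (median 8.97) in young rats. No old rat came near any young rat, and the difference was -4.57 ± 0.45 (SE, 6 against 6 rats; adjusted p = 1.51e-09). In 4 of the 6 old rats Kera lay below 4.54, the median of all values in the table, where array signals are close to background, so that the size of the difference is uncertain. Chondroadherin, Chad (Entrez Gene 29195), which binds collagen and cell surface integrins, lay between 4.06 and 5.90 (median 4.82) in old rats and between 8.21 and 9.98 (median 9.22) in young rats. In 2 of the old rats it was below 4.54. The groups again did not overlap, with a difference of -4.29 ± 0.45 (adjusted p = 5.46e-09). Fibromodulin, Fmod, which steers the assembly of collagen fibrils, ran from 6.07 to 7.69 (median 6.49) in old and from 9.77 to 11.10 (median 10.46) in young rats, a difference of -3.75 ± 0.38 (adjusted p = 1.51e-09).

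Thbs4, thrombospondin-4 of tendon and the muscle-tendon junction, ran from 6.77 to 7.44 (median 7.0) in old and from 9.73 to 11.42 (median 10.20) in young rats. It was 9.66-fold lower in old rats (-3.27 ± 0.33, adjusted p = 1.51e-09), and every old rat was below every young rat. Tenomodulin, Tnmd, a membrane protein of mature tendon cells, ran from 3.16 to 3.89 in old and from 5.26 to 6.58 in young rats (-2.38 ± 0.27, adjusted p = 3.98e-08). All old rats lay below 4.54. Col11a1, a minor fibrillar collagen chain, was lower by a log2 difference of -1.47 ± 0.21 (adjusted p = 5.72e-06), again with all old rats below 4.54. The other 3 markers did not pass the test. Scx, scleraxis, the transcription factor that marks tendon precursors, ran from 6.40 to 6.78 in old and from 6.47 to 6.86 in young rats (-0.05 ± 0.21, adjusted p = 0.955), so that the groups covered the same range. Mkx, another tendon transcription factor, differed by -0.11 (adjusted p = 0.846), and Prg4, the lubricating proteoglycan of gliding surfaces, by -0.56 (adjusted p = 0.0537). The 6 markers were lower with or without young replicate 1.

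**Figure D1:**
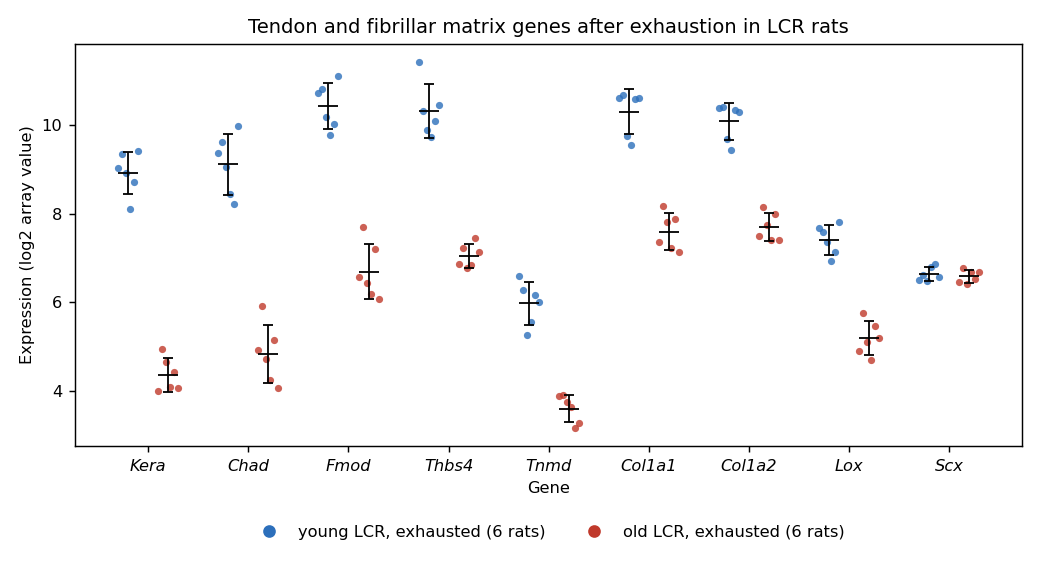
Expression on the log2 scale (vertical axis) of 9 tendon and collagen genes in young (blue) and old (red) LCR rats after exhaustion. Each point is 1 rat, and the bars show the mean and SD of 6 rats. The groups are apart for every gene except Scx, for which old rats (6.40 to 6.78) and young rats (6.47 to 6.86) overlap.

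The average of the 9 tendon markers in a rat ran from 5.35 to 5.99 (median 5.46) in old and from 7.30 to 8.19 (median 7.88) in young exhausted LCR rats. The age groups were also apart in exhausted HCR rats, with 5.60 to 6.11 in old and 7.56 to 8.36 in young ones, and in HCR rats at rest (5.57 to 6.11 and 6.38 to 7.65). They overlapped in LCR rats at rest, where old rats ran from 5.53 to 7.10 and young ones from 7.02 to 8.23. In whole muscle RNA, fewer cells of a type and less RNA per cell cannot be told apart, and neither can the amount of tendon dissected with the muscle. When the average entered the model as a covariate, a choice made after the data were seen, no gene passed the test in either direction; the smallest adjusted p was 0.662, 601 genes had an unadjusted p under 0.05, and the median SE over genes was 0.22 in place of 0.12. Because that average is made of genes that differ and does not overlap between the age groups, its part in the other differences and that of age cannot be told apart.

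Outside the tendon and matrix lists, 4 secreted proteins and a receptor were among the lowest genes. Angptl7, an angiopoietin-like secreted protein, had the lowest difference of all genes that passed. It ran from 4.82 to 6.54 (median 5.38) in old and from 9.11 to 10.82 (median 10.43) in young rats, with no overlap (-4.60 ± 0.46, adjusted p = 1.51e-09). Chrdl1, an antagonist of bone morphogenetic proteins, differed by -1.74 ± 0.27 (adjusted p = 1.72e-05). Ccdc3, which encodes a secreted coiled-coil protein, differed by -1.69 ± 0.22 (adjusted p = 5.62e-07). Serpinf1, pigment epithelium-derived factor, ran from 7.97 to 8.74 (median 8.27) in old and from 9.37 to 10.42 (median 9.94) in young rats (-1.59 ± 0.19, adjusted p = 1.63e-07). Uts2r, the membrane receptor of the vasoactive peptide urotensin II, differed by -1.59 ± 0.24 (adjusted p = 1.72e-05) and lay below 4.54 in 4 old rats. In all 5 genes every old rat was below every young rat.

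Collagens and the proteins that bind and join them were lower as a group. Of 28 measured members of the extracellular matrix list (35 listed), 25 were lower and none higher, against 4.38% and 0.753% of all genes. The median was -0.72, and all 28 differences were below 0. In 21 the groups did not overlap (2.66% of all genes). Without young replicate 1, 22 of the 28 were lower and the median was -0.58. Col1a1 and Col1a2, the chains of type I collagen, led the list. Col1a1 (Entrez Gene 29393) ran from 7.12 to 8.16 (median 7.58) in old and from 9.56 to 10.69 (median 10.59) in young rats, without overlap. It was 6.56-fold lower (-2.71 ± 0.25, adjusted p = 7.30e-10), the smallest adjusted p of all genes. Col1a2 ran from 7.40 to 8.15 (median 7.62) in old and from 9.43 to 10.40 (median 10.31) in young rats (5.25-fold lower, -2.39 ± 0.24, adjusted p = 1.51e-09).

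Other collagens differed less. Col3a1, the chain of type III collagen, ran from 8.01 to 8.77 (median 8.28) in old and from 8.94 to 9.72 (median 9.28) in young rats (-0.97 ± 0.19, adjusted p = 0.000573). The fibrillar chain Col5a2 followed at -0.60, the beaded type with Col6a1 at -0.62 and Col6a2 at -0.46, and the fibril-associated Col14a1 at -0.71. The basement membrane chains Col4a1 and Col4a2 differed by -0.54 and -0.37, and the laminin chains Lama2, Lamb1 and Lamc1 by -0.73, -0.51 and -0.40. All of these passed the test, Col14a1 not without young replicate 1 (adjusted p = 0.161) or any of 6 other arrays, and Col4a2 not without old replicate 3 (adjusted p = 0.057). Over all 28 collagen chains tested, a family put together after the values were seen, 13 were lower and none higher. Their median was -0.38, and 4.38% of all genes were lower. Among the 15 that did not pass were the cartilage chain Col2a1 (-0.05) and Col9a2 (0.13) and Col9a3 (0.09). Col2a1 lay below 4.54 in 3 old and 3 young rats.

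The enzymes that mature and cross-link collagen were partly lower. Lysyl oxidase, Lox, which starts the cross-links between collagen molecules, ran from 4.68 to 5.76 (median 5.14) in old and from 6.92 to 7.80 (median 7.47) in young rats, with no overlap (4.70-fold lower, -2.23 ± 0.28, adjusted p = 2.92e-07). Its relatives Loxl2, Loxl3 and Loxl4 differed by -1.02, -0.83 and -1.06 and passed, while Loxl1 did not (-0.41, adjusted p = 0.238). P3h2, a prolyl 3-hydroxylase, differed by -1.40 ± 0.21 (adjusted p = 9.56e-06), Pcolce, which speeds the cleavage of procollagen, by -0.85, and the collagen chaperone Serpinh1 by -0.43 (adjusted p = 0.0659 without young replicate 1, and above 0.05 also without either of 2 other arrays). The prolyl 4-hydroxylase subunits P4ha1 (-0.13, adjusted p = 0.523) and P4hb (-0.02, adjusted p = 0.933) and the lysyl hydroxylase Plod2 (-0.07, adjusted p = 0.852) did not pass. Of 16 such enzymes tested, grouped after their values were seen, 8 were lower, against 4.38% of all genes.

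Small leucine-rich proteoglycans, which coat collagen fibrils, were lower in 10 of 11 members tested (4.38% of all genes), with a median of -1.35. This family too was put together after its values were seen, and the 3 lowest members are tendon markers. Beside Kera, Chad and Fmod, Prelp differed by -2.08 ± 0.27 (adjusted p = 8.22e-07), lumican, Lum, by -1.45 ± 0.24 (adjusted p = 4.94e-05) and osteoglycin, Ogn, by -1.35 ± 0.18 (adjusted p = 1.25e-06). Decorin, Dcn, a general fibroblast product, ran from 10.29 to 10.66 (median 10.44) in old and from 11.14 to 11.86 (median 11.65) in young rats (-1.09 ± 0.15, adjusted p = 3.58e-06). Aspn (-1.22), Omd (-1.18) and Bgn (-0.85) also passed, Bgn not without any of 4 arrays (adjusted p up to 0.0918, without young replicate 1). Tsku did not pass, at -0.08 (adjusted p = 0.912). It lay below 4.54, close to background, in all 6 old and all 6 young rats, so that a difference could be missed.

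Single proteins that signal from or remodel the matrix are given here without a group count. Fibronectin, Fn1, differed by -1.11 ± 0.18 (adjusted p = 3.49e-05), Sparc, a collagen-binding secreted protein, by -0.92 ± 0.11 (adjusted p = 1.84e-07) and the growth factor-like Ccn2 by -0.84 ± 0.16 (adjusted p = 0.000658). The collagen-degrading protease Mmp2 differed by -1.0 ± 0.18 and its membrane-bound activator Mmp14 by -0.83 ± 0.16, both past the threshold. The protease inhibitors Timp1 (-0.55, adjusted p = 0.0692) and Timp3 (-0.25, adjusted p = 0.267) did not pass. Periostin, Postn, was the member most affected by 1 array. It ran from 4.63 to 5.57 (median 5.0) in old and from 5.89 to 9.16 (median 6.28) in young rats, where young replicate 1 held the 9.16. Its difference was -1.62 ± 0.35 (adjusted p = 0.00256) with that array and -1.12 (adjusted p = 0.0115) without it.

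The upstream sequences of 3 of these genes are shown because they moved together and share a match to CCAAT, the letters bound by the general factor NF-Y. Matches on either strand are in capitals (ATTGG is CCAAT on the other strand). The sequences are the 250 bases before the annotated start in RefSeq on the GRCr8 build, 5′ to 3′ on the gene's strand, which is the plus strand for all 3.
Kera, chr7:34283850-34284099: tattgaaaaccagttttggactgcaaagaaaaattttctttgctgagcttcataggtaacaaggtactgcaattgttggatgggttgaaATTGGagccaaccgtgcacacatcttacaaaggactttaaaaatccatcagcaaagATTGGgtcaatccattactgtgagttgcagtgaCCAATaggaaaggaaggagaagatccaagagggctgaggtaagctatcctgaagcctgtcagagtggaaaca
Fmod, chr13:48045317-48045566: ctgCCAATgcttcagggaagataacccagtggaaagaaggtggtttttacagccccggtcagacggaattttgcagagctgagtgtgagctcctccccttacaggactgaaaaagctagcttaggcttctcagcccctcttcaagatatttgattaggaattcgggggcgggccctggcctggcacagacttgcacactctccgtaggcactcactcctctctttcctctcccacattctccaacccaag
Col1a2, chr4:33518307-33518556: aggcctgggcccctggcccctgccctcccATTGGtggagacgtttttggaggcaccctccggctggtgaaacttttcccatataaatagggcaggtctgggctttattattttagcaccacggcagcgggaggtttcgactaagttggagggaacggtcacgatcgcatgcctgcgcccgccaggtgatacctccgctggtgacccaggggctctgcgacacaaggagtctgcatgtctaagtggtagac
The Kera matches begin 161, 105 and 72 bases before the start, the Fmod match 247 and the Col1a2 match 221 bases before it. Chad, Thbs4 and Tnmd held no match, so that 3 of the 6 genes searched had one, where 34.3% of 27457 rat promoters of the same length do. CATCTG, a variant of the E-box that basic helix-loop-helix factors bind, was in none of the 6 and in 13.7% of all promoters. These matches describe letters in a window and were tied to no binding measurement.

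Markers of fibroblasts and fibro-adipogenic progenitors, the cells that make most of this matrix, were lower in 7 of 10 tested members. The median was -0.87, and 4.38% of all genes were lower. Col1a1, Col3a1, Dcn and Lum among the 7 are also in the extracellular matrix list, so that both counts share them. Without young replicate 1 the marker count was 6 of 10 and the median -0.76. Pdgfra, the receptor that identifies these progenitors, ran from 6.43 to 7.20 (median 7.0) in old and from 7.20 to 8.20 (median 7.71) in young rats (-0.77 ± 0.15, adjusted p = 0.000838). Dermatopontin, Dpt, differed by -0.99 ± 0.17 and the microfibril protein Mfap5 by -0.71 ± 0.18, both past the threshold, Mfap5 not without young replicate 1 (adjusted p = 0.06). Cd34 (-0.23, adjusted p = 0.263), Pi16 (-0.14, adjusted p = 0.761) and Clec3b (-0.12, adjusted p = 0.748), which mark progenitors in other studies, did not pass. The average of the 10 markers in a rat ran from 7.34 to 7.99 in old and from 8.17 to 8.95 in young rats, with no overlap. It includes the shared matrix genes, and whether it accounts for the lower matrix genes was not tested.

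**Figure D2:**
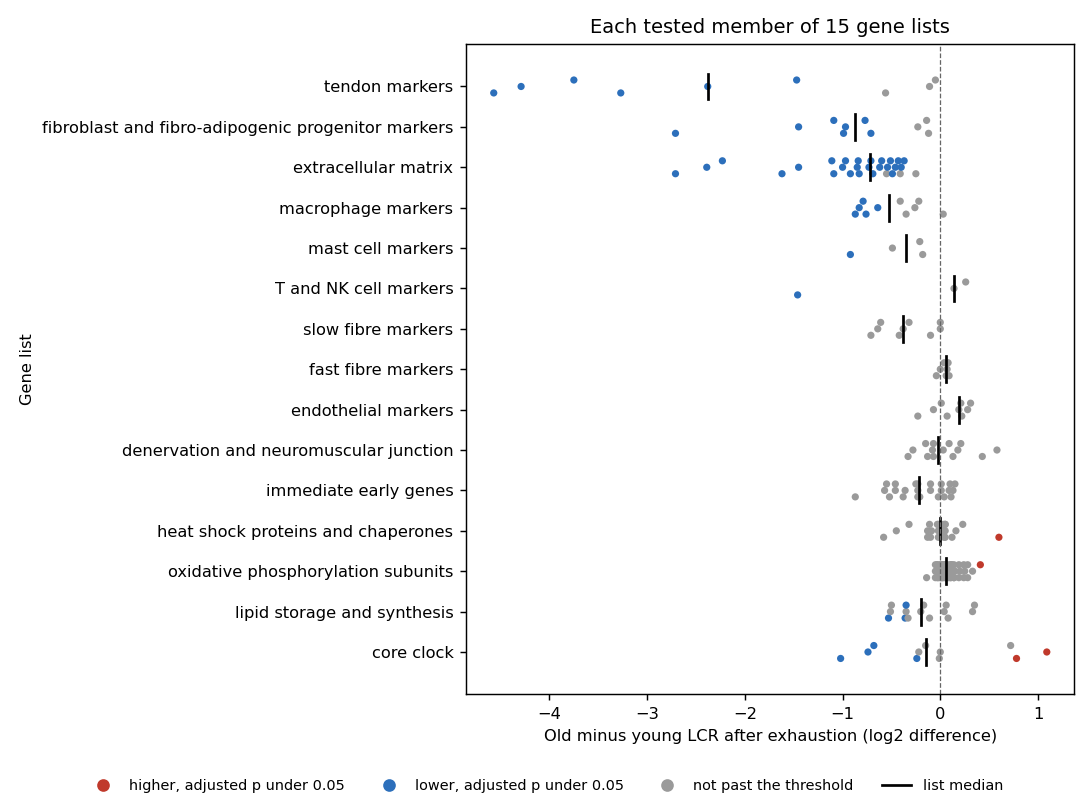
Log2 difference, old minus young LCR rats after exhaustion (horizontal axis), of each tested member of 15 gene lists (rows). Blue and red points passed the test as lower and higher, grey points did not, and the black bar is the list's median. Tendon markers reach -4.57 with a median of -2.38, while oxidative phosphorylation subunits stay near their median of 0.06.

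Immune cell genes were lower in part. Of 10 tested macrophage markers 5 were lower, against 4.38% of all genes, with a median of -0.53. Without young replicate 1, 3 were lower (median -0.42). Csf1r, the receptor for macrophage growth factor, ran from 6.11 to 6.78 (median 6.39) in old and from 6.97 to 7.59 (median 7.25) in young rats, without overlap (-0.87 ± 0.17, adjusted p = 0.000616). Cd14, a co-receptor for bacterial lipopolysaccharide, differed by -0.64 ± 0.13 (adjusted p = 0.000652), and the adhesion receptor Adgre1 by -0.83 ± 0.18 (adjusted p = 0.00313), with all old rats below 4.54. The hyaluronan receptor Lyve1 (-0.76, adjusted p = 0.0113) and the complement subunit C1qb (-0.79, adjusted p = 0.0181) lost the call without young replicate 1, at adjusted p = 0.0578 and 0.0846, C1qb also without 1 other array. Cd68 (-0.41, adjusted p = 0.305) and the pan-leukocyte marker Ptprc (0.03, adjusted p = 0.977) did not pass.

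Cd4, carried by helper T cells and in rats also by macrophages, ran from 6.49 to 7.21 (median 6.66) in old and from 7.36 to 8.70 (median 8.46) in young rats (-1.46 ± 0.25, adjusted p = 9.49e-05). The groups did not overlap. Of the 10 T and NK cell markers listed, 7 were below the filter on dim genes. Among the 3 tested, Cd4 was the only one with a difference below 0, and the median was 0.14. Of 8 neutrophil markers none was tested. The mast cell protease Cpa3 differed by -0.92 ± 0.24 (adjusted p = 0.0132), with overlapping groups and 2 old rats below 4.54. It did not pass without either of 2 arrays (adjusted p up to 0.0568). Among 20 complement and antigen presentation genes, C1qb, the protease C1r (-0.62 ± 0.13, adjusted p = 0.00206) and its inhibitor Serping1 (-0.67 ± 0.15, adjusted p = 0.00291) were lower and none was higher. Over all genes 4.38% were lower. Ptgs2, cyclooxygenase-2 of prostaglandin synthesis, was the sole member of 14 inflammatory signalling genes that passed, where 5.14% of all genes did. It ran from 4.73 to 5.06 (median 4.97) in old and from 5.50 to 6.66 (median 5.94) in young rats (-1.05 ± 0.20, adjusted p = 0.000468).

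Clock genes differed in both directions. Of 11 tested members of 19 listed, 2 were higher and 4 lower, against 0.753% and 4.38% of all genes. Dbp, a D-box transcription factor that is a direct output of the clock, ran from 10.13 to 10.97 (median 10.46) in old and from 9.04 to 9.77 (median 9.41) in young rats. The groups did not overlap, and Dbp was 2.13-fold higher in old rats (1.09 ± 0.25, adjusted p = 0.00415). Per3, a period gene, ran from 7.39 to 8.01 (median 7.69) in old and from 6.50 to 7.18 (median 6.96) in young rats (0.78 ± 0.13, adjusted p = 0.000116). Per2, its better known relative, ran from 5.99 to 7.69 in old and from 5.70 to 6.56 in young rats and did not pass (0.72 ± 0.24, adjusted p = 0.0782).

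The positive limb went the other way. Npas2, the partner of BMAL1 that can stand in for CLOCK, ran from 6.19 to 7.19 (median 6.84) in old and from 7.55 to 8.09 (median 7.81) in young rats, with no overlap (-1.02 ± 0.16, adjusted p = 3.46e-05). Bmal1 ran from 7.06 to 8.46 (median 7.92) in old and from 8.39 to 8.86 (median 8.65) in young rats, so that the groups just touched (-0.74 ± 0.20, adjusted p = 0.0222; up to 0.108 without old replicate 6 or young replicate 2). Nfil3, which represses D-box genes, ran from 6.29 to 6.87 (median 6.41) in old and from 6.89 to 7.48 (median 7.15) in young rats (-0.68 ± 0.17, adjusted p = 0.00999). Clock itself differed by -0.24 ± 0.07 (adjusted p = 0.0395) and lost its call when any of 8 of the 12 arrays was left out; without young replicate 1 its adjusted p was 0.105. Per1 (-0.15, adjusted p = 0.839), Cry1 (-0.22, adjusted p = 0.265), Cry2 and Bhlhe40 did not pass. The hour of tissue collection is not given in the labels, and its part in these differences was not tested.

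**Figure D3:**
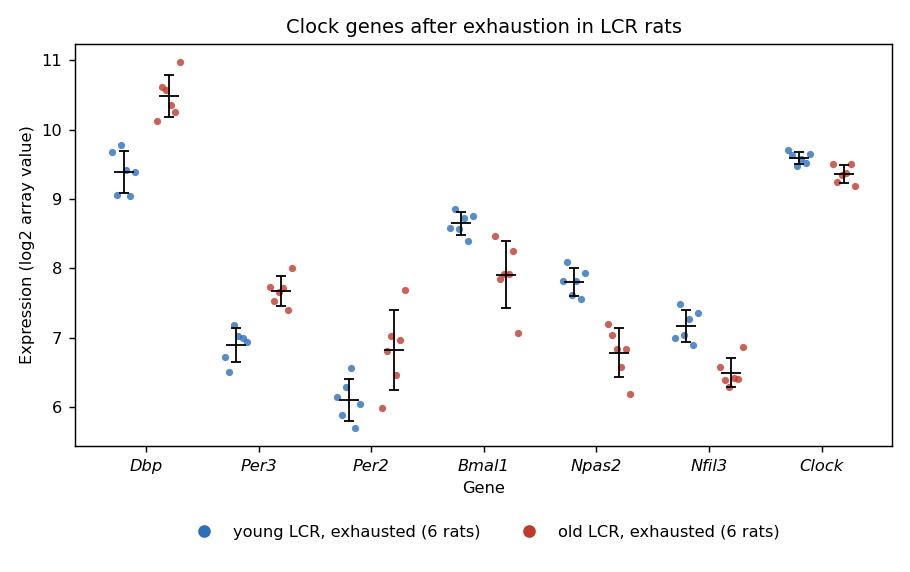
Expression on the log2 scale of 7 clock genes in young (blue) and old (red) LCR rats after exhaustion. Each point is 1 rat, and the bars are the mean and SD of 6 rats. Dbp and Per3 lie higher in all old rats, Npas2 and Nfil3 lower, and Per2 overlaps between the groups.

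Promoters of the 6 clock genes that passed were searched for CACGTG, the E-box that CLOCK and BMAL1 bind, and for AGGTCA, the core letters bound by the ROR and REV-ERB receptors that control Bmal1. AGGTCA was found in 1 of the 6, Bmal1, and in 13.7% of all promoters of that length. CACGTG was in none of the 6 windows and in 5.79% of all. The Bmal1 window is shown because its gene carries the match, which is in capitals and begins 15 bases before the start (GRCr8, plus strand, RefSeq).
Bmal1, chr1:176766078-176766327: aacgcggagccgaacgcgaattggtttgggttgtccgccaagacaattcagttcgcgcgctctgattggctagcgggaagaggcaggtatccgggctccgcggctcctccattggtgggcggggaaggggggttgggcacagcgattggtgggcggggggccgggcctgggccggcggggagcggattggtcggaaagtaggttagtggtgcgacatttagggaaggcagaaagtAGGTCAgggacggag

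Of 10 fatty acid desaturases and elongases tested, a family put together after the values were seen, 4 were lower and none higher. Their median was -0.35, and 4.38% of all genes were lower. Fads2 and Fads1, the delta-6 and delta-5 desaturases of polyunsaturated fatty acid synthesis, led the family. Fads2 ran from 5.12 to 5.70 (median 5.56) in old and from 6.39 to 6.99 (median 6.72) in young rats (2.28-fold lower, -1.19 ± 0.17, adjusted p = 4.17e-06). Fads1 ran from 6.0 to 6.55 (median 6.32) in old and from 6.90 to 7.49 (median 7.25) in young rats (-0.92 ± 0.13, adjusted p = 6.47e-06). Neither gene's groups overlapped. The elongases Elovl6 (-0.53, adjusted p = 0.0307) and Elovl5 (-0.36, adjusted p = 0.0189) also passed. Elovl6 lost the call without any of 7 arrays (adjusted p up to 0.113) and Elovl5 without either of 2 (up to 0.0652). In 5 old rats and 1 young rat Elovl6 lay below 4.54. Srebf2, a transcription factor of cholesterol and fatty acid synthesis, differed by -0.35 ± 0.08 (adjusted p = 0.00685). The stearoyl desaturases Scd (0.33, adjusted p = 0.764) and Scd2 (-0.51, adjusted p = 0.275) did not pass. In the list of 15 lipid storage and synthesis genes 3 were lower, against 4.38% of all genes. Without young replicate 1 it was 1 of the 15, where 282 of all 9558 genes were lower.

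Single members of other lists passed. Ddit4, an inhibitor of mTORC1 that glucocorticoids induce, differed by -0.99 ± 0.28 (adjusted p = 0.0282; above 0.05 without any of 5 arrays, 0.103 without young replicate 1), and the insulin receptor substrate Irs2 by -0.67 ± 0.19 (adjusted p = 0.0281; up to 0.086 when any of 6 arrays was left out). They were the 2 of 11 glucocorticoid and FoxO target genes that passed, against 5.14% of all genes. Of the 11 differences 10 were below 0, with a median of -0.27. Without young replicate 1, 1 of the 11 was lower and the median was -0.15. Foxo3, a FoxO factor of muscle mass control, differed by -0.39 ± 0.10 (adjusted p = 0.00933). Sod3, the extracellular superoxide dismutase, differed by -0.47 ± 0.11 (adjusted p = 0.00685). Nupr1, a stress-induced regulator, differed by -0.71 (adjusted p = 0.0123) and lost its call without young replicate 1 alone (adjusted p = 0.0578). Ckb, the brain form of creatine kinase, singled out after its values were seen, ran from 6.12 to 6.43 (median 6.16) in old and from 6.73 to 7.21 (median 7.11) in young rats (-0.81 ± 0.12, adjusted p = 8.34e-06).

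The 72 genes that were higher in old rats had smaller differences, with a median of 0.40 against -0.56 among the 419 lower ones. Cst7, cystatin F, an inhibitor of lysosomal cysteine proteases made mainly by immune cells, had the highest difference. It ran from 5.99 to 8.24 (median 6.78) in old and from 4.58 to 5.76 (median 5.31) in young rats, without overlap (3.17-fold higher, 1.66 ± 0.39, adjusted p = 0.00627). Pcdh11x, a protocadherin, differed by 0.91 ± 0.18 (adjusted p = 0.00083), and the groups touched. Map7d2, a microtubule-associated protein, ran from 6.54 to 6.86 (median 6.62) in old and from 5.60 to 6.34 (median 5.92) in young rats (0.73 ± 0.11, adjusted p = 1.72e-05). Pfkfb1, an isoform of the enzyme that sets the level of fructose 2,6-bisphosphate and thereby glycolytic flux, ran from 9.10 to 9.64 (median 9.21) in old and from 7.99 to 8.94 (median 8.71) in young rats (0.72 ± 0.12, adjusted p = 0.000116). Every old rat was above every young rat for both.

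Izumo1, known as a sperm protein of egg fusion, was higher by 0.78 ± 0.14 (adjusted p = 0.000309) and Grhl2, an epithelial transcription factor, by 0.72 ± 0.17 (adjusted p = 0.00697), both at levels under 6.40 in all rats. Sqor, the mitochondrial enzyme of hydrogen sulfide oxidation (0.73, adjusted p = 0.0302), Grid1, a glutamate receptor-like protein (0.77, adjusted p = 0.0465), and the neuronal enolase Eno2 (0.67, adjusted p = 0.0281) passed with overlapping groups, and each lost the call when any of at least 7 arrays was left out. Grid1 lay below 4.54, close to background, in 3 old and all 6 young rats, and Eno2 in 2 young ones. Tmem196, a membrane protein, was higher by 1.0 ± 0.28 (adjusted p = 0.0222) and did not pass without any of 5 arrays (adjusted p up to 0.0696). Hspa4l, a chaperone of the HSP110 family, was higher by 0.60 ± 0.16 (adjusted p = 0.02). It was the sole member of 25 heat shock proteins and chaperones that passed, where 5.14% of all genes did. It did not pass without any of 3 arrays (adjusted p up to 0.0885).

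The immediate early, oxidative and contractile lists are given beside the 5.14% of all genes that passed the test. At that share only a few members of lists of this size would pass, so that counts of 0 or 1 say little about a list. Of 24 immediate early genes tested none passed, with a median of -0.22; Nr4a2, an orphan nuclear receptor, ran from 6.68 to 9.45 (median 8.13) in old and from 8.26 to 9.43 (median 9.14) in young rats (-0.87 ± 0.34, adjusted p = 0.145). Egr1 differed by 0.15 (adjusted p = 0.902). Of 57 subunits of oxidative phosphorylation 1 passed, Ndufa6 of complex I, which was higher by 0.41 ± 0.11 (adjusted p = 0.0188; up to 0.0838 without either of 2 arrays). None of 14 citric acid cycle genes, 27 fatty acid oxidation genes or 27 proteasome subunits passed. Of the 57 subunits 11 differed below 0 (median 0.06), and of the 14 citric acid cycle genes 12 did (median -0.06). It was 16 of 24 for immediate early genes, 11 of 27 for fatty acid oxidation and 13 of 27 for the proteasome. Fast fibre genes had a median of 0.06 and no call in 7. Slow fibre genes had a median of -0.38 (-0.24 without young replicate 1) and no call in 9, with all 9 differences below 0. Myh7, the slow myosin heavy chain, ran from 9.0 to 10.44 in old and from 9.61 to 11.14 in young rats (-0.64 ± 0.52, adjusted p = 0.592). A p above the threshold does not show that these levels were equal; the median SE of the difference over all genes was 0.12.

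Myh3, the embryonic myosin heavy chain of regenerating fibres, did not pass but shows how far 1 rat stood apart. Young rats ran from 5.38 to 10.84 (median 6.31), with the 10.84 in young replicate 1, and old rats from 4.11 to 6.51 (median 5.62). The difference was -1.40 ± 0.51 (adjusted p = 0.11) with that array and -0.62 (adjusted p = 0.43) without it.

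The age difference in exhausted LCR rats was then set beside that in other LCR rats at rest. These comparisons share no arrays, but both use the same estimate of each gene's spread, so that their calls are not independent. At rest 861 genes (9.01%) passed the test, 588 (6.15%) lower and 273 (2.86%) higher in old rats. Of the 419 genes lower after exhaustion, 231 (55.1%) were also lower at rest, which is 39.3% of those lower at rest. Of the 72 higher ones, 14 (19.4%) were also higher at rest, 5.13% of those higher at rest. The tendon markers were lower in 6 of 9 at rest as well (median -1.93), and the extracellular matrix genes in 22 of 28 (median -0.63). Kera differed by -3.48 at rest against -4.57 after exhaustion, Thbs4 by -1.93 against -3.27, Col1a1 by -2.81 against -2.71 and Dbp by 1.15 against 1.09. For these 4 genes the change in the age difference was not past the threshold (adjusted p = 0.571, 0.223, 0.97 and 0.983). Relt, a receptor of the tumour necrosis factor family chosen after its values were seen, was lower in old rats after exhaustion (-0.52, adjusted p = 0.0288; above 0.05 without any of 5 arrays and 0.109 without young replicate 1) and higher at rest (0.67, adjusted p = 0.00211), the only gene called in opposite directions.

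**Figure D4:**
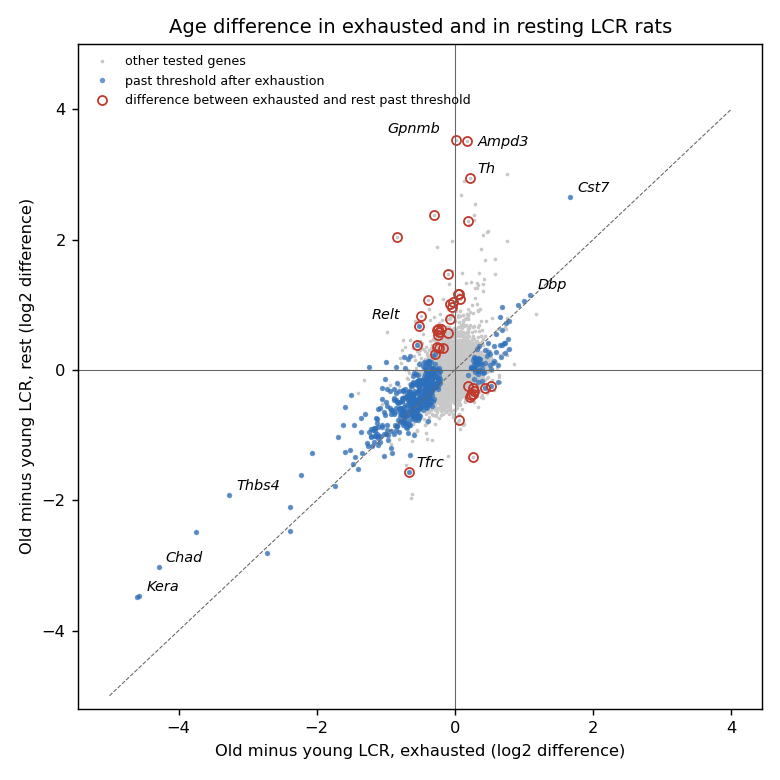
Log2 difference of old minus young LCR rats after exhaustion (horizontal axis) and at rest (vertical axis) for the 9558 genes tested. Blue points passed the test after exhaustion, red circles mark the 39 genes whose age difference itself differed between exhausted and resting rats, and the dashed line marks equal differences. Kera and Chad lie low on both axes, while Gpnmb, Ampd3 and Th are near 0 after exhaustion and high at rest.

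A test of the difference between both age differences called 39 genes (0.408%), 28 with a lower and 11 with a higher value after exhaustion than at rest; 986 genes had an unadjusted p under 0.05. The count varied with the arrays in the fit: it was 2 when only the 24 LCR arrays entered, 9 without young LCR exhausted replicate 1 and 145 without old LCR rest replicate 3. It was 11 to 25 without any 1 of 11 other LCR arrays and 63 without old LCR rest replicate 4. Gpnmb, a glycoprotein of lysosome-rich cells and of denervated muscle, had the lowest value. It ran from 6.17 to 6.86 (median 6.42) in old and from 5.84 to 7.70 (median 6.28) in young exhausted rats, and from 6.30 to 10.84 (median 9.61) in old and 5.05 to 6.09 (median 5.72) in young rats at rest. Exhausted rats of both ages thus overlapped, while 5 of 6 old rats at rest lay at 8.73 or higher. The age difference was 0.01 ± 0.49 after exhaustion and 3.53 at rest, and changed by -3.52 ± 0.69 (adjusted p = 0.0104).

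Ampd3, an AMP deaminase that removes AMP during energy shortage, followed the same pattern. It ran from 5.50 to 7.54 (median 6.21) in old and from 5.77 to 7.77 (median 5.81) in young exhausted rats, against 6.51 to 10.17 (median 9.52) in old rats at rest. The change in the age difference was -3.34 ± 0.66 (adjusted p = 0.0104). The metallothionein Mt2A changed by -2.88 ± 0.54 (adjusted p = 0.0101), Th, tyrosine hydroxylase of catecholamine synthesis, by -2.72 ± 0.61 (adjusted p = 0.0325), the small GTPase Rrad by -2.68 ± 0.65 (adjusted p = 0.0438) and the myogenic factor Myog by -2.10 (adjusted p = 0.0434). In none of these 6 genes did old and young rats differ past the threshold after exhaustion. Th lay below 4.54, close to background, in 4 old and 6 young exhausted rats. So did Mt2A in 3 old ones and Rrad in 2 old and 1 young. The size of the change in these genes is therefore uncertain. Old LCR rest replicate 3 had the lowest value of its group in all 6. With only the 24 LCR arrays in the fit none of the 6 passed, at adjusted p = 0.0511 for Gpnmb, 0.0546 for Ampd3, 0.114 for Mt2A, 0.16 for Th, 0.107 for Rrad and 0.118 for Myog. In the fit over all groups Gpnmb, Ampd3 and Mt2A kept the call whichever of the 24 arrays was left out, while Th, Rrad and Myog lost it without young LCR exhausted replicate 1 (adjusted p = 0.0594, 0.106 and 0.106) and without others.

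**Figure D5:**
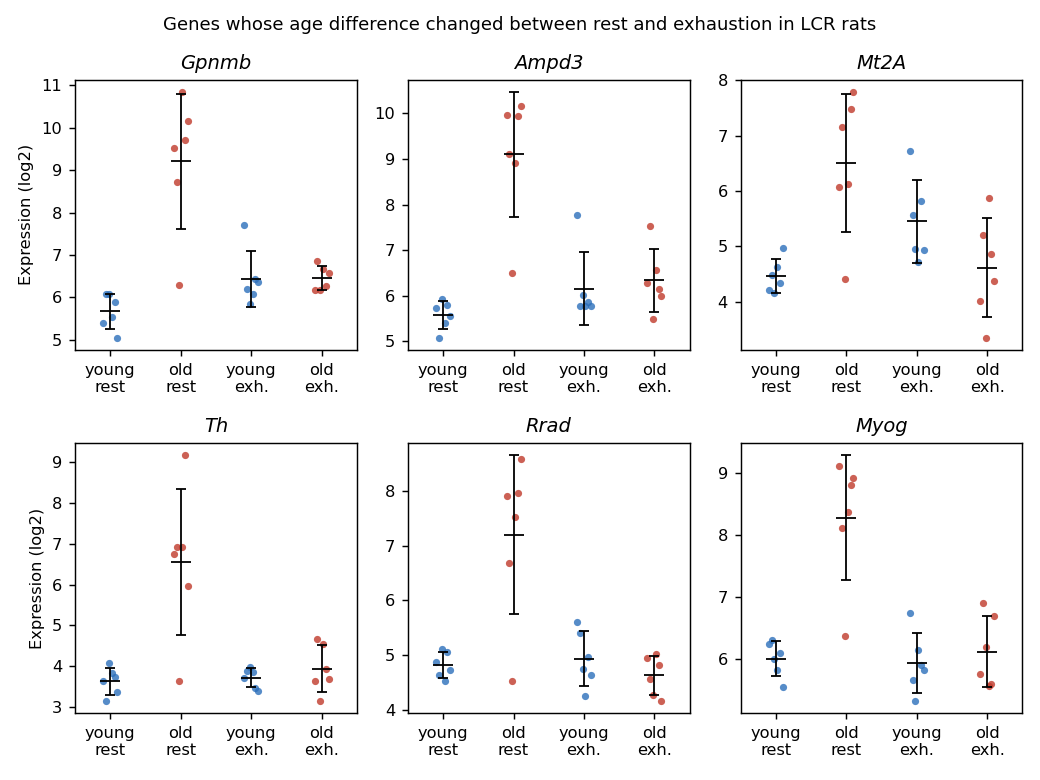
Expression on the log2 scale of 6 genes in the 4 LCR groups, young (blue) and old (red), at rest and exhausted (exh.). Points are rats, and bars show the mean and SD of 6 rats. Old rats at rest are high and spread, with 1 low rat (replicate 3) in each panel, and old and young exhausted rats overlap.

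Of 14 denervation and neuromuscular junction genes, 7 were higher in old LCR rats at rest, against 2.86% of all genes. None was called after exhaustion, but Myog was the only member for which the change itself passed. The acetylcholine receptor subunits Chrng (0.58, adjusted p = 0.363) and Chrna1 (0.43, adjusted p = 0.639) did not pass after exhaustion. Chrng lay below 4.54 in 3 old and 6 young exhausted rats. The muscle ubiquitin ligase Trim63 changed by -0.81 (adjusted p = 0.02) and the lysosomal protease Ctsl by -1.07 (adjusted p = 0.0101). In the other direction, Tfrc, the transferrin receptor of iron uptake, ran from 8.32 to 8.62 (median 8.39) in old and from 8.90 to 9.51 (median 9.04) in young exhausted rats, and from 7.77 to 8.67 and 9.68 to 9.98 at rest. It was lower in old rats in both states, by -0.67 ± 0.16 (adjusted p = 0.00585) and -1.57, and the age difference changed by 0.90 ± 0.22 (adjusted p = 0.0486). The ciliary protein Tekt1 changed by 1.60 ± 0.30 (adjusted p = 0.0101), the semaphorin Sema7a by 0.83 (adjusted p = 0.0372) and the endothelial receptor Tie1 by 0.61 (adjusted p = 0.0428), and none of these 3 differed past the threshold between old and young exhausted rats. Ctsl and Tekt1 kept the call for the change whichever LCR array was left out, but not with only the 24 LCR arrays in the fit (adjusted p = 0.114 and 0.118). Tekt1 lay below 4.54 in 2 old and 2 young exhausted rats. Without young LCR exhausted replicate 1, Trim63 (adjusted p = 0.0583), Tfrc (0.109), Sema7a (0.103) and Tie1 (0.088) lost the call.

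In HCR rats after exhaustion 251 genes (2.63%) passed the test, 197 (2.06%) lower and 54 (0.565%) higher with age. They include 111 of the genes lower in exhausted LCR rats (26.5% of those and 56.3% of the HCR genes) and 14 of the higher ones (19.4% and 25.9%). The HCR comparison shares no arrays with the LCR comparison, but both use the same estimate of each gene's spread. Their calls are therefore not independent, and with only the exhausted HCR arrays in the fit 92 genes passed. Tendon markers were lower in 6 of 9 (median -2.14), extracellular matrix genes in 8 of 28 (median -0.34) and macrophage markers in none of 10 (median -0.21). The test of the difference between lines called no gene by limma; 472 genes (4.94%) had an unadjusted p under 0.05, and the smallest adjusted p was 0.253, for Enpp4, a membrane hydrolase of nucleotides (0.46, higher with age in LCR at 0.29 ± 0.07). The difference between lines was -0.49 for Kera (adjusted p = 0.982), -0.43 for Col1a1 (adjusted p = 0.954) and -0.61 for Csf1r (adjusted p = 0.939). The lower counts in HCR rats are therefore not shown to be a difference between the lines. Across all 3 age differences 86 genes were lower and 6 higher, the latter being Dbp, Hook1, Hspa4l, Map7d2, Pfkfb1 and Tmem196.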

How the data were processed

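RNA of the extensor digitorum longus was measured on 48 arrays, 6 in each of 8 groups given by the labels' line, age and exercise. Titles number the animals, which makes each replicate a rat of its own (1 title of young HCR rest names 2 animals). The p-values measure the spread between rats within groups, pooled over the 8 groups. The deposited values are log2 expression, 1 per probe set and array. The labels' protocols state Trizol extraction, DNase treatment and labelling from 400 ng of RNA. Expression Console is named in the design text, and RMA and oligo in the submitters' processing notes; the sources used here do not say which made the values. RMA makes arrays alike in distribution, so that shifts shared by most genes are lost. Column medians ran from 4.47 to 4.59. Arrays have no read depth, and their number limits the precision.

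Of 36685 probe sets, the 14824 naming exactly 1 gene were used (14670 matched a current rat gene record by Entrez identifier). The brightest probe set stood for each of 14557 genes. Genes had to exceed 4.54 (the median over the whole table) in 6 or more arrays, which left 9558. limma 3.58.1 in R 4.3.3 fitted 8 group means over all 48 arrays with eBayes at its defaults (residual df 40, prior df 3.77). Two-sided p-values were adjusted by Benjamini-Hochberg over all 9558 genes, with a threshold of 0.05. SE is that of the fitted difference. The pipeline was tested on simulated data. Python 3.11.15 served for lists and figures. Array quality weights are those of limma's arrayWeights.

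The members and the 43 gene lists were chosen with earlier results of these data known. Named genes are the 15 highest and 15 lowest differences past the threshold without predicted genes, up to 6 members of each list past it or up to 2 others, and up to 5 genes in each direction of each interaction; other list and family members were named after their values were seen. Alternatives changed the arrays in the fit, normalization, filter, weights, moderation and probe set choice and left out each array. 3 more were added after the data were seen: leaving out 3 arrays that an earlier account of these data sets apart (replicate 1 of both exhausted HCR groups, replicate 2 of old LCR rats at rest), and the tendon or plasma protein marker average as a covariate. Probe sets naming no or several genes were left out. Promoter sequences are from RefSeq (GRCr8).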

Additional observations from a re-analysis of the deposited data

Results flagged for a closer look

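A value far from the other 5 of its group was found in 22 of 262 groups of 6 rats examined for the genes named above, where chance gives about 1 in 20. Of the 22, 11 fell on young LCR exhausted replicate 1, the array with the lowest quality weight of the 12. Matrix and regeneration genes were high in it: Postn was 9.16 against at most 6.30 in the other young rats, Myh3 10.84 against 6.60, Lama2 10.01 against 9.0, Ccn2 7.86 against 7.06, Timp1 6.91 against 5.81 and Mfap5 8.37 against 7.69. Genes of macrophages and lysosomes were high in it as well, with C1qb at 7.72, Cd68 at 5.99, Ctsl at 9.82 and Gpnmb at 7.70, and so was Ampd3 at 7.77. What sets this rat or array apart was not tested.

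The other 11 were spread over 7 arrays. Among old LCR exhausted rats, Aspn (4.20) and Per1 (6.86) were low in replicate 1, Serping1 (6.91) and Ckb (6.43) high in replicate 2, Sema7a (7.75) low in replicate 5, and Foxo3 (7.50) and Tsku (3.65) low in replicate 6. Among young LCR exhausted rats, Tie1 (6.68) was high and Cd34 (8.06) low in replicate 4, Tfrc (9.51) high in replicate 5 and Tekt1 (3.66) low in replicate 6.

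The age difference differed between exhausted and resting LCR rats, by the interaction test, for 39 genes. Of the genes named above, it was lower after exhaustion for Gpnmb (-3.52), Ampd3 (-3.34), Mt2A (-2.88), Th (-2.72), Rrad (-2.68), Myog (-2.10), Relt (-1.19), Ctsl (-1.07) and Trim63 (-0.81). It was higher for Tekt1 (1.60), Tfrc (0.90), Sema7a (0.83) and Tie1 (0.61).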

How the results depend on the processing

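Of the 89 named genes called between old and young exhausted LCR rats, 66 kept their call under every alternative other than the covariate fits, and none changed direction there. The 491 genes called became 328 to 503 when 1 array was left out, the 861 at rest 630 to 1078, the 251 in HCR rats 138 to 333, the 39 with a changed age difference 9 to 145, and the calls between lines stayed at 0; members of lists called ran from 52 to 72. With only the arrays of the groups compared, 368 genes (318 lower, 50 higher) were called between old and young exhausted LCR rats. In the same setting 439 genes were called at rest, 92 in HCR rats and 2 for the changed age difference. Without a filter it was 140 in HCR rats and 17 for the changed age difference, without the 3 arrays that stand apart (2 of them in the HCR comparison and 1 in that at rest) 114 and 74, and with array weights 112 for the latter. In HCR rats the count also fell to 138 to 159 without old replicate 1 or 5 or young replicate 2 or 6. The causes were not tested. With the tendon average as a covariate 0 genes and 0 list members were called, and 21 of the 89 genes changed sign: Chad 0.05, Prelp 0.23, Chrdl1 0.44, Postn 0.12, Lum 0.20, C1qb 0.07, Serping1 0.11, C1r 0.07, Nupr1 0.14, Dcn 0.06, Pdgfra 0.16, Lyve1 0.30, Cd14 0.01, Aspn 0.07, Bgn 0.42, Col14a1 0.09, Loxl2 0.40, Mfap5 0.59, Mmp2 0.14, Omd 0.23 and Relt 0.09. Chad is itself 1 of the 9 genes in the tendon average, which does not overlap between the age groups. None of these values passed the test, and with a median SE over genes of 0.22 their signs are not shown to be reversals. With the plasma protein average 424 genes were lower and 66 higher. No paired analysis was possible because the labels give animal numbers only and no number shared between groups. The precision is limited by 6 rats a group, by signals close to background in dim genes such as Tnmd, and by ages, sampling times and dissection that the labels do not state.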
